A study of Mus musculus with 9 samples.

Results

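Igf1r, Igfbp4 and Igfbp7 encode the receptor of insulin-like growth factor 1 and 2 proteins that bind insulin-like growth factors. They were followed in CD8 T cells purified from mice with a transgene for the T cell receptor. Every probe set whose RefSeq accession belonged to one of these 3 genes was taken. This gave 5 of the 1246 probe sets on the array (1 for Igf1r, 3 for Igfbp4 and 1 for Igfbp7), and 3 of its 909 named genes. The genes were chosen with their levels in all 3 groups known, so their levels and differences are given as a description, without a test.

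The cells came from female mice of the B10D2 strain, and each of 3 groups had 3 single-colour Affymetrix GLYCOv4 arrays. Deletion cells had been stimulated in vivo with their cognate antigen as a weak signal, a condition that ends in loss of the cells. Anergy cells had been stimulated in vivo with the cognate antigen as a strong signal, a condition that ends in unresponsiveness. Naive transgenic CD8 T cells were the control. The labels name neither the receptor transgene nor the age of the mice, and they do not say whether replicates came from separate animals, so the errors may be technical. Values are log2 RMA expression, on which a difference of 1 is a 2-fold change. On such bulk samples, fewer cells that express a gene and less of its RNA per cell cannot be told apart.

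Insulin-like growth factors 1 and 2 are secreted hormones that signal growth and survival through the receptor tyrosine kinase Igf1r. A family of secreted binding proteins holds these factors outside the cell and so limits or prolongs their access to the receptor. Igfbp4 binds them tightly and mostly restrains them until a protease cleaves it, and in mice its transcript is abundant in naive T cells. Igfbp7, also called angiomodulin or Mac25, binds them weakly and is best known from blood vessels.

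The regions around the transcription starts are shown because the 3 genes had 3 different patterns across the groups. Each line holds 250 bases before the start and 50 after it, from RefSeq on GRCm38.p6, with GC boxes (GGGCGG, either strand) and the TATA box (TATAAA, either strand) in capitals. All 3 genes matched an entry.
Igf1r: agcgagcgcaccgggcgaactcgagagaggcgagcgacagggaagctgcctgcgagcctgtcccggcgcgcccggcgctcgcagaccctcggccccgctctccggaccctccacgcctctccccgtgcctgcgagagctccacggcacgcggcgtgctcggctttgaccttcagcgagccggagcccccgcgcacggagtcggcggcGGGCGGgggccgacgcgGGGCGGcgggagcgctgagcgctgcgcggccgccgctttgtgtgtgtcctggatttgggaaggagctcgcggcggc
Igfbp4: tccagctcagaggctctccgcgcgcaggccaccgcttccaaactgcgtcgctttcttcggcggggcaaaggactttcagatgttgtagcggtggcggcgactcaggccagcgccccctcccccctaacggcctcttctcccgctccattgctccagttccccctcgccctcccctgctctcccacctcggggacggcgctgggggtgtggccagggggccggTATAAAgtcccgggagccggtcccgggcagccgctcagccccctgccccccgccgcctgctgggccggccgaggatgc
Igfbp7: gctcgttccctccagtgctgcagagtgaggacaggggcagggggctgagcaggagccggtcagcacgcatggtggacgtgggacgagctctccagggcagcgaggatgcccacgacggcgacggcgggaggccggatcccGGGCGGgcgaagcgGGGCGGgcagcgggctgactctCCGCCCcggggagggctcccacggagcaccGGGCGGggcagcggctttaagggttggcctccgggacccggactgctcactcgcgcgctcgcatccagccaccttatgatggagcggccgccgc
The Igf1r window is chr7:67952007-67952306 on the plus strand, that of Igfbp4 chr11:99040994-99041293 on the plus strand and that of Igfbp7 chr5:77407996-77408295 on the minus strand. The Igfbp4 window held 1 TATA box, which 13.6% of all 32851 windows of 300 bases hold, and its first base lay 28 bases before the start. The Igf1r window held 2 GC boxes and the Igfbp7 window 4, and 35.7% of all windows hold at least 1. The letters of the AP-1 site TGANTCA (7.81% of windows), the FOXO site TGTTTAC (3.65%) and the NFAT core GGAAA (61.3%), searched on both strands, were in none of the 3 windows. The Igf1r, Igfbp4 and Igfbp7 windows were 76.0%, 71.3% and 73.3% G or C, where the median of all windows was 52.7%. The shares given are over all windows and not over windows as rich in G and C. The motifs were chosen with the expression values known, and a match is a stretch of letters only.

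Igf1r was lower in anergy cells than in the other two groups. Its log2 values in replicates 1 to 3 were 5.93, 6.41 and 6.04 in deletion cells, 4.97, 4.75 and 3.80 in anergy cells, and 6.09, 6.03 and 6.02 in naive cells. All 3 anergy arrays lay below all the others, and deletion and naive arrays overlapped. The means were 6.13 ± 0.25 in deletion, 4.51 ± 0.62 in anergy and 6.05 ± 0.04 in naive cells (SD, n = 3 each). Deletion exceeded anergy by 1.62 ± 0.25 on the log2 scale (SE), a 3.07-fold difference and the highest of all 1246 probe sets in that comparison. Anergy minus naive was -1.54 ± 0.25, so that the anergy level was 2.91-fold lower than the naive one. No detection measure was used, and the anergy values lay around the medians of those arrays (4.48 to 4.58). The sizes of both differences from anergy cells therefore rest on a level not shown to be above background. Deletion minus naive was 0.08 ± 0.25, and it lay between -0.06 and 0.18 when single arrays were left out.

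The anergy arrays spread more widely for Igf1r than those of the other groups, and replicate 3 was the lowest. The SE of 0.25 pools the spread of the 3 groups, so it is the same in each comparison. For deletion minus naive it was 0.12 without anergy replicate 3. Anergy replicate 3 also stood apart over all probe sets: its log2 deviations from the group means had an SD of 0.166, where the other 8 arrays had 0.094 to 0.128. Without it, deletion minus anergy was 1.27 and anergy minus naive was -1.19, and the remaining anergy values of 4.97 and 4.75 were still below every deletion and naive value. Igf1r was then no longer the highest in deletion minus anergy. Vcam1 exceeded it, with a deletion mean of 3.83 and remaining anergy values of 2.06 and 2.96.

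Igfbp7 was highest in deletion cells, intermediate in anergy cells and lowest in naive cells. Its log2 values were 7.23, 7.23 and 7.28 in deletion cells, 6.16, 6.25 and 6.16 in anergy cells, and 4.29, 4.49 and 4.51 in naive cells. No groups overlapped, and the arrays of a group differed by far less than the groups did. The means were 7.25 ± 0.03 in deletion, 6.19 ± 0.05 in anergy and 4.43 ± 0.12 in naive cells (SD, n = 3 each). The level was 2.08-fold higher in deletion than in anergy (1.06 ± 0.07 on the log2 scale, SE). Against naive cells it was 7.05-fold higher in deletion (2.82 ± 0.07) and 3.39-fold higher in anergy (1.76 ± 0.07). The naive values lay near the medians of those arrays (4.44 to 4.49), so both of these folds rest on a level not shown to be above background. Left-out arrays moved the difference of deletion and anergy only between 1.04 and 1.09. The Igfbp7 probe set carries the suffix s, which marks probes that can bind more than 1 transcript.

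Igfbp4 was lower in both stimulated groups than in naive cells, in all 3 of its probe sets. In the one with the highest mean, whose name ends in _at and which is the specific kind, the log2 values were 6.79, 6.74 and 7.06 in deletion cells, 6.52, 6.65 and 6.91 in anergy cells, and 9.61, 9.94 and 9.88 in naive cells. Naive arrays stood well above the rest, and deletion and anergy arrays overlapped. Deletion minus naive was -2.95 ± 0.13 and anergy minus naive -3.12 ± 0.13 (log2, SE, n = 3 arrays each), which are 7.71-fold and 8.67-fold lower levels.

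The _s_at probe set of Igfbp4 gave 4.57, 5.28 and 6.21 in deletion cells, 4.42, 4.19 and 4.51 in anergy cells, and 10.19, 10.72 and 10.58 in naive cells. The _x_at probe set, of the kind that can bind unrelated transcripts, gave 5.57, 5.76 and 6.02 in deletion cells, 5.35, 5.17 and 5.44 in anergy cells, and 9.98, 10.32 and 10.12 in naive cells. On both, deletion arrays lay above anergy arrays and far below naive arrays. With all 9 arrays, the _s_at probe set had the most negative measured difference of all 1246 probe sets in both comparisons with naive cells. It was -5.14 ± 0.33 for deletion and -6.12 ± 0.33 for anergy (log2, SE). No detection measure was used, and its anergy values lay near the medians of those arrays (4.48 to 4.58), so these sizes rest on a level not shown to be above background. The _x_at values were -4.36 ± 0.13 and -4.82 ± 0.13. The probe sets therefore gave folds that differed from each other by more than their SEs, and no single fold can be stated for Igfbp4.

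They also differed on how deletion compared with anergy. Deletion minus anergy was 0.17 ± 0.13 for the _at probe set, 0.46 ± 0.13 for _x_at and 0.98 ± 0.33 for _s_at (log2, SE). The first of these turned to -0.0185 after quantile normalization, and it ranged from 0.07 (without deletion replicate 3) to 0.28 (without anergy replicate 3). The deletion arrays spread most on _s_at (SD 0.82, against 0.17 in anergy and 0.27 in naive cells), with replicate 3 the highest, and without that array the difference was 0.55.

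Of the 5 probe sets, 4 were higher in deletion than in anergy with no overlap between the groups, as were 11.0% of all probe sets. Against naive cells 1 was higher and 3 lower in deletion without overlap, where 14.2% and 17.3% of all probe sets were. In anergy 1 was higher and 4 were lower, where 13.2% and 20.7% of all probe sets were. Since the genes were chosen for these levels, nothing is read from the counts. Deletion and anergy were set against the same naive arrays, so their differences from naive cells are not independent of each other.

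**Figure D1:**
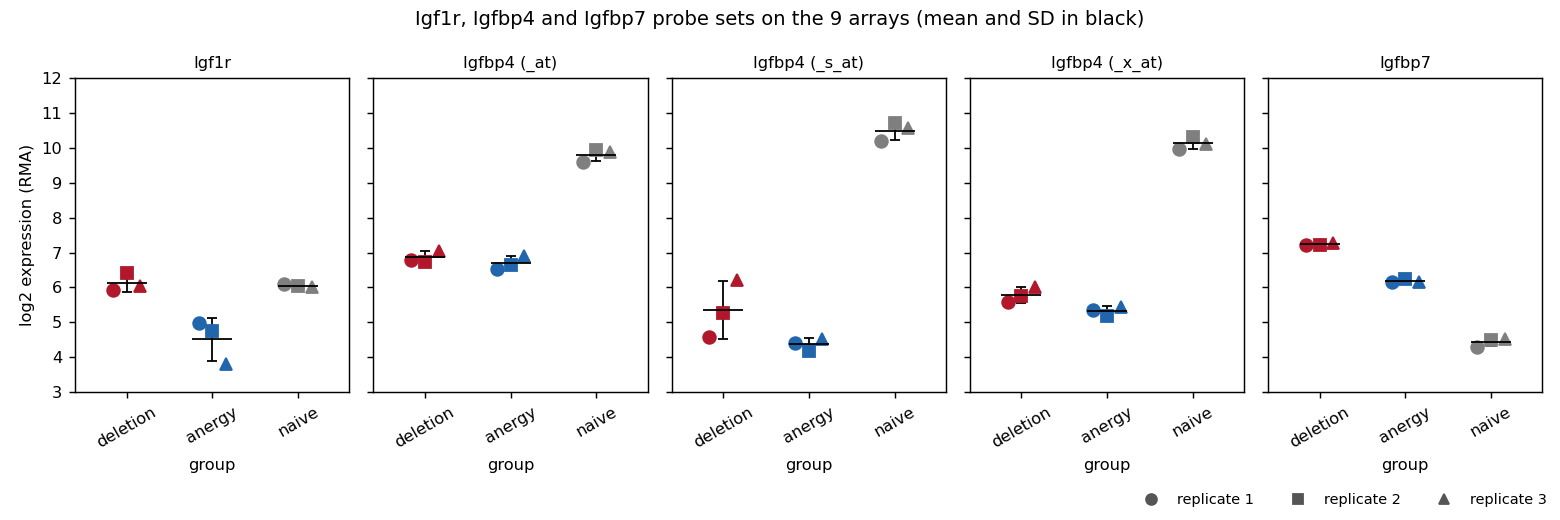
Log2 RMA expression (vertical axis) of the 5 probe sets on the deletion, anergy and naive arrays, with a symbol for each replicate and the mean and SD in black. Igf1r is low in the anergy arrays alone (3.80 to 4.97), Igfbp4 is high in the naive arrays alone, and Igfbp7 steps down from deletion (7.23 to 7.28) through anergy (6.16 to 6.25) to naive (4.29 to 4.51).

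**Figure D2:**
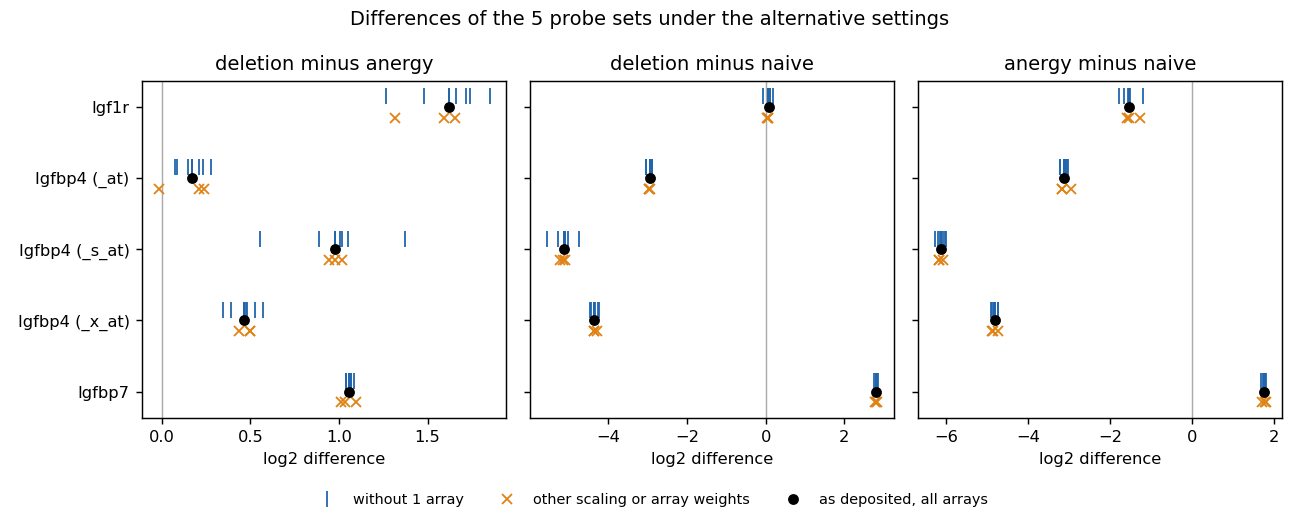
Log2 differences (horizontal axis) of the 5 probe sets in the 3 comparisons, with all arrays and values as deposited (black), without 1 array in turn (blue) and with another scaling or array weights (orange). The Igfbp7 marks stay close together, while Igf1r in deletion minus anergy runs from 1.27 to 1.85 and the _s_at probe set of Igfbp4 from 0.55 to 1.37 when 1 array is left out.

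Other genes of the family were taken from a list of 48 ligands, receptors, binding proteins, proteases, signalling and RNA-binding genes besides the 3, of which 15 had a named probe set. In deletion against anergy 0 of the 15 passed in limma (adjusted p under 0.05 over all 1246 probe sets), where 3.37% of all probe sets passed, and 1 had an unadjusted p under 0.05. Their median difference was -0.04 on the log2 scale, beside -0.01 over all probe sets. In deletion against naive 1 rose and 1 fell, 13.3% of the list against 19.0% of all probe sets (medians -0.04 and -0.02). In anergy against naive 2 rose and 2 fell, 26.7% against 26.8% (medians 0.02 and 0.01).

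The ligands showed no difference that passed. Igf1 lay between 2.22 and 2.59 on all 9 arrays, near the lowest value of the table (1.67), and Igf2 between 5.05 and 5.53. Of the receptors, Igf2r clears Igf2 from the cell surface and carries mannose-6-phosphate-tagged enzymes to lysosomes. It was 8.38, 8.31 and 8.15 in deletion cells, 8.15, 8.27 and 8.01 in anergy cells, and 7.81, 7.98 and 7.78 in naive cells. Both stimulated groups lay above the naive arrays. Igf2r rose by 0.42 ± 0.09 in deletion (log2, SE; limma adjusted p = 0.00819) and by 0.29 ± 0.09 in anergy (limma adjusted p = 0.0433). The first call held in all 15 alternatives run. The second was lost in 8 of them, among them median centring (0.24, adjusted p = 0.163) and those without deletion replicate 1 or 2, anergy replicate 1 or 2, or naive replicate 1 or 3 (adjusted p up to 0.148), and its adjusted p ran from 0.000642 to 0.163 over all alternatives.

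None of the other binding proteins passed. For Igfbp1, Igfbp2, Igfbp3, Igfbp5, Igfbp6, Igfbpl1 and Igfals, the acid-labile subunit that joins circulating complexes, 0 of 7 passed in limma in any comparison, and 0 had an unadjusted p under 0.05. The shares over all probe sets were 3.37% in deletion against anergy, 19.0% in deletion against naive and 26.8% in anergy against naive. In the first comparison 0 of 7 is therefore near the share of all. Their differences ran from -0.12 to 0.04 in deletion against anergy, from -0.13 to 0.02 in deletion against naive and from -0.10 to 0.13 in anergy against naive. Igfbp1, Igfbp3 and Igfbp5 lay between 2.24 and 2.94 on all arrays, near the lowest value of the table (1.67). Igfbp2, Igfbp6, Igfbpl1 and Igfals lay between 4.02 and 5.45. No detection measure was used, so small differences at these levels do not show steady expression. Esm1, a secreted protein with an IGFBP domain, lay between 2.19 and 2.52 on its counted probe set and also passed in no comparison.

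Among genes that act inside the cell, Pdpk1, the kinase that switches on Akt below the receptor, was 9.29, 9.41 and 9.13 in deletion cells, 9.31, 9.33 and 9.09 in anergy cells, and 9.56, 9.61 and 9.44 in naive cells. Its difference from naive passed in anergy (-0.29 ± 0.09, limma adjusted p = 0.0433) and not in deletion (-0.26 ± 0.09, adjusted p = 0.0920). The deletion difference did pass in 3 of 15 alternatives. Its limma adjusted p was 0.0142 when the replicate number was a block, 0.0147 once arrays were quantile-normalized and 0.0271 when they were weighted, and it ran from 0.0142 to 0.300 over all alternatives. The anergy call was lost in 9 of 15 alternatives, among them those without deletion replicate 1, any anergy replicate, or naive replicate 1 or 2 (adjusted p up to 0.144), and its adjusted p ran from 0.00552 to 0.185 over all alternatives. The difference between the groups themselves was 0.03 ± 0.09.

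The Igf2bp genes encode proteins that bind Igf2 and other mRNAs, and 2 of the 3 differed from naive cells. Igf2bp2 was 5.97, 5.85 and 5.96 in deletion cells, 5.75, 5.75 and 5.97 in anergy cells, and 6.37, 6.32 and 6.40 in naive cells. It fell by 0.44 ± 0.07 in deletion (limma adjusted p = 0.00207) and by 0.54 ± 0.07 in anergy (limma adjusted p = 0.000363). Igf2bp3 was 4.51, 5.44 and 4.61 in deletion cells, 5.19, 6.0 and 5.30 in anergy cells, and 4.35, 4.39 and 4.23 in naive cells, with replicate 2 the highest in both stimulated groups.

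Igf2bp3 rose 2.26-fold in anergy (1.17 ± 0.26, limma adjusted p = 0.00651). The naive values lay below the medians of those arrays (4.44 to 4.49), so this fold rests on a level not shown to be above background. Deletion minus naive was 0.53 ± 0.26 (adjusted p = 0.230) and deletion minus anergy -0.64 ± 0.26 (adjusted p = 0.253), neither past the threshold in limma. With a replicate block the first of these passed (limma adjusted p = 0.0449), 1 of 15 alternatives in which it did, and its adjusted p ran from 0.0449 to 0.647 over all alternatives. These values are from its _x_at probe set, of the kind that can bind unrelated transcripts. The _s_at one, between 1.92 and 2.89, gave 0.43 in anergy against naive and did not pass (limma adjusted p = 0.145). Igf2bp1, between 2.94 and 3.11 on all arrays, passed in no comparison.

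**Figure D3:**
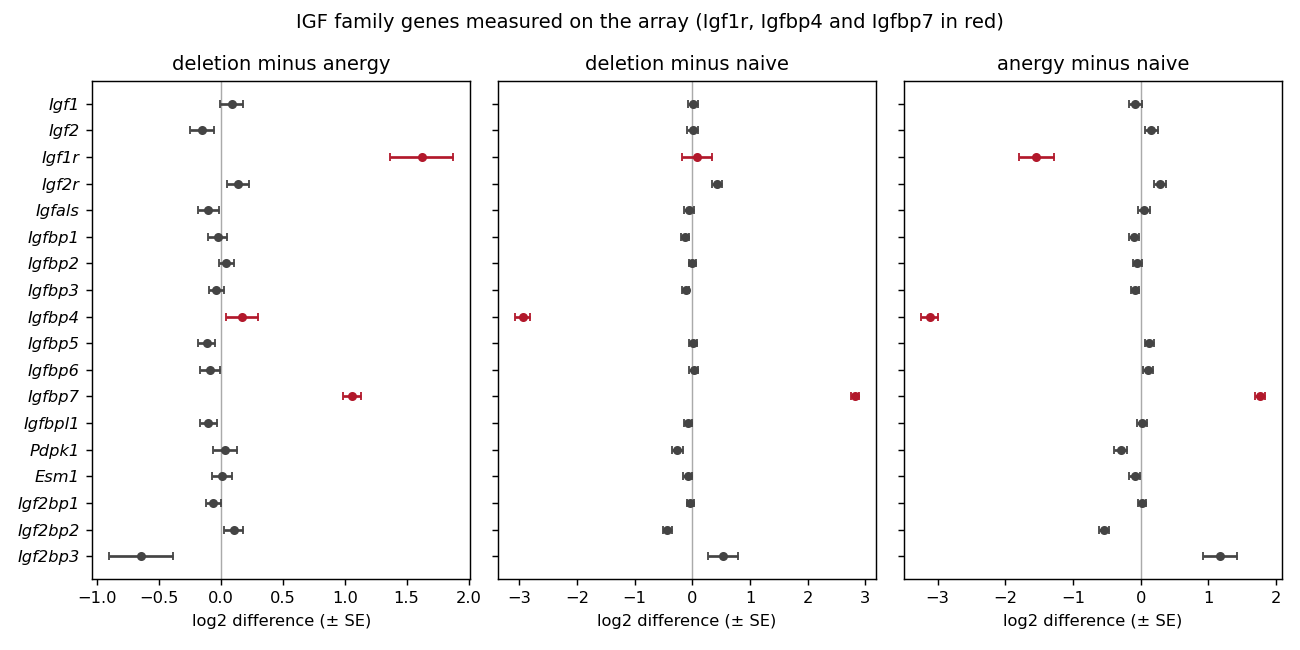
Log2 differences with their SE (horizontal axis) of the 18 measured IGF family genes in the 3 comparisons, with Igf1r, Igfbp4 and Igfbp7 in red and 1 probe set per gene, the one with the highest mean. The other binding proteins lie within 0.13 of 0 in every panel, and the horizontal scales differ between panels.

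As a setting for Igf1r, 13 of 50 listed growth factor receptor tyrosine kinases other than Igf1r were measured. Fgfr1, Fgfr3, Flt3 and Csf1r lay between 4.70 and 7.49. The rest lay between 2.45 and 4.26, below the median of every array (4.44 to 4.58), so their small differences do not show steady expression. In deletion against anergy 0 passed in limma (2 at an unadjusted p under 0.05), where 3.37% of all probe sets passed, with differences from -0.24 to 0.33 and a median of -0.06. In deletion against naive 0 passed in limma (0 at an unadjusted p under 0.05), where 19.0% of all probe sets passed, with a median of -0.01. In anergy against naive 1 rose and 0 fell, where 26.8% of all probe sets passed, with a median of 0.04. This was Fgfr4, a receptor of fibroblast growth factors, with a rise of 0.20 ± 0.07 (limma adjusted p = 0.0437), lost in 13 of 15 alternatives, including every left-out array but anergy replicate 2. Its values lay between 3.18 and 3.52 on all arrays.

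The genes whose log2 values followed each of the 3 most closely over the 9 arrays were picked by Pearson's r among 906 other named genes. The 9 arrays share the group structure, so these values describe it and carry no test. For Igf1r, 16 genes exceeded 0.9. Among the closest were Slc35b3, a transporter of the sulfate donor into the Golgi (r = 0.977), Sgsh, a lysosomal enzyme of heparan sulfate breakdown (0.966), Fryl (0.948) and Pfdn5, a subunit of the prefoldin chaperone (0.948). Slc35b3 averaged 9.19 in deletion, 8.52 in anergy and 9.21 in naive cells, and Sgsh 7.31, 6.86 and 7.34 in the same groups. All 4 had their lowest value on anergy replicate 3, the array that stood apart. Without that array r ran from 0.869 (Fryl) to 0.945 (Slc35b3), their ranks lay between 1 and 7, and Spearman's rho over the 9 arrays was 0.588 for Slc35b3 and 0.803 for Fryl.

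For Igfbp4, 50 genes exceeded 0.9. The highest r over all 9 arrays belonged to Ifngr2, a chain of the interferon-gamma receptor (r = 0.994), Itgae, the integrin chain CD103 (0.993), Tgfbr3, a co-receptor of TGF-beta (0.993), Ccr9, a gut homing receptor (0.992), and Rnf220, a ubiquitin ligase (0.991). Ifngr2 averaged 4.71 in deletion, 4.74 in anergy and 6.66 in naive cells, and Itgae 5.44, 4.99 and 10.10. Rnf220 followed the same course over a smaller range, at 8.60, 8.55 and 9.01. Without anergy replicate 3 these 5 ranked between 4 and 8 by r. Spearman's rho was 0.946 for Rnf220 and 0.750 to 0.820 for the other 4.

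For Igfbp7, 23 genes exceeded 0.9. The highest r over all 9 arrays belonged to Psen2, a presenilin of the gamma-secretase complex (r = 0.983), Ccl4, a chemokine of activated T cells (0.973), Vcan, the proteoglycan versican (0.971), Cd83, an activation marker (0.970), and Chst3, a chondroitin sulfotransferase (0.965). Psen2 averaged 9.63 in deletion, 9.19 in anergy and 7.57 in naive cells, and Cd83 7.28, 6.29 and 4.46. Each of the 5 had the same order of group means as Igfbp7. Without anergy replicate 3 they ranked between 1 and 6 by r, and Spearman's rho was 0.865 to 0.966.

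**Figure D4:**
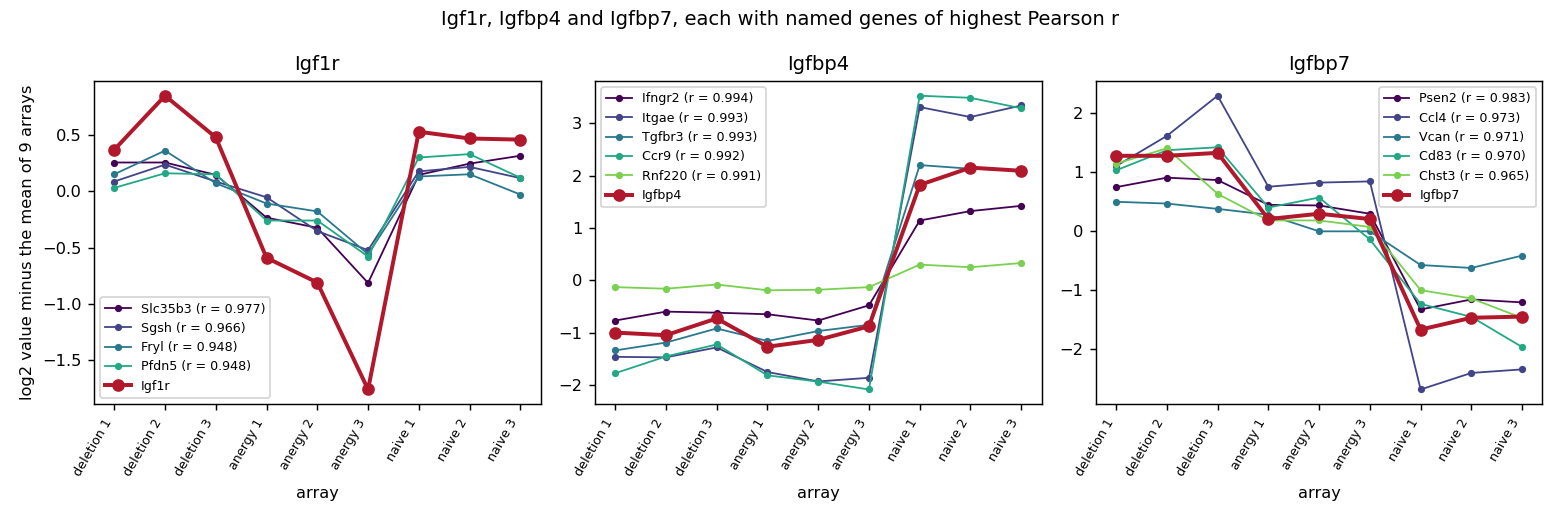
Log2 values minus each gene's mean over the 9 arrays (vertical axis) for Igf1r, Igfbp4 and Igfbp7 in red, with 4 named genes of highest Pearson r for Igf1r and 5 each for Igfbp4 and Igfbp7. The Igf1r group dips in the anergy arrays and is lowest on replicate 3, the Igfbp4 group is high in the naive arrays, and the Igfbp7 group steps down from deletion to naive.

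Of 13 T cell markers only Cd2, an adhesion receptor of T cells, had a named probe set, so the cell type could be checked on that gene alone. It lay between 9.82 and 10.38 in deletion cells, 9.33 and 9.48 in anergy cells, and 11.53 and 11.68 in naive cells. This marker itself passed in every comparison. Cd2 differed from naive by -1.57 in deletion (limma adjusted p = 1.70e-05) and by -2.18 in anergy (limma adjusted p = 1.04e-06). Deletion exceeded anergy by 0.61 (limma adjusted p = 0.0390). Markers of vessels, stroma and platelets bear on Igfbp7, and 12 of 26 were measured. Their mean log2 value per array was 3.78 to 4.01 in deletion, 3.71 to 3.90 in anergy and 3.82 to 3.89 in naive cells. In deletion against naive and in deletion against anergy 1 of the 12 was higher and 0 were lower in limma, Pecam1 in both, and in anergy against naive Pecam1 was the 1 that was lower. Of all probe sets 3.37% passed in deletion against anergy, 19.0% in deletion against naive and 26.8% in anergy against naive. Pecam1 averaged 8.97 in deletion, 8.25 in anergy and 8.54 in naive cells, the same order of deletion above anergy as Igfbp7 but not of anergy above naive. The other 10 besides Pecam1 and Vcam1 differed by -0.22 to 0.04 in deletion against anergy and by -0.13 to 0.04 in deletion against naive. Among them the vessel gene Emcn and the stromal genes Dcn and Lum stayed between 3.09 and 3.36, 2.26 and 2.54, and 1.94 and 2.00 on all arrays. These levels lay below the median of every array (4.44 to 4.58), so their small differences do not show steady expression.

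Vcam1, of the same list, had its highest mean in deletion (3.83, against 2.66 in anergy and 3.08 in naive cells) and differed widely within deletion, at 2.22, 4.50 and 4.77 in replicates 1 to 3, against 2.06, 2.96 and 2.97 in anergy and 3.32, 3.48 and 2.45 in naive cells. The macrophage gene Mrc1 did likewise, at 3.07, 3.78 and 3.78 in deletion, 2.86, 3.20 and 3.14 in anergy and 3.53, 3.47 and 2.83 in naive cells. Its list followed this in part. Within deletion, Csf1r (5.13, 5.65 and 5.71), Adgre1 (2.12, 3.14 and 2.79), Ly75 and Clec4a2 were also lowest on replicate 1. Cd209a, Clec10a, Siglec1, Cx3cr1 and Cd207 were lowest on replicate 2, by smaller margins than those of Csf1r and Adgre1. Clec10a was 3.34, 3.33 and 3.41, and Siglec1 4.38, 4.23 and 4.38. Within anergy, Csf1r (4.84, 5.14 and 5.52), Adgre1 (2.13, 2.44 and 2.44), Mrc1, Vcam1 and Cx3cr1 were lowest on replicate 1. Ly75 was lowest there on replicate 3, and the rest of the macrophage and dendritic cell markers on replicate 2. The _s_at probe set of Igfbp4 was lowest on deletion replicate 1 and highest on replicate 3, as Vcam1 was, and the part of other cells in that spread was not tested. Of 4 B cell markers and 10 macrophage and dendritic cell markers measured, 0 passed in deletion against anergy in limma, with 1 and 2 at an unadjusted p under 0.05. In that comparison 3.37% of all probe sets passed. Against naive cells, where 19.0% of all probe sets passed in deletion and 26.8% in anergy, 2 B cell markers rose and 1 fell in deletion, and 1 rose and 1 fell in anergy. Of the macrophage and dendritic cell markers 0 rose and 1 fell in deletion, and 1 rose and 1 fell in anergy. Their part in the differences of Igfbp4 and Igfbp7 was not tested.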

How the data were processed

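Per the labels' protocols, Trizol-extracted total RNA was turned into biotin-labelled cRNA and hybridised. The authors deposited 1 log2 value per probe set and array, made with RMA, which the submitters' processing notes name alone. The RMA version, array annotation and filters are not given in the sources used here. That method and a range of 1.67 to 13.86 set the scale as log2. No detection column was used. Of 1246 probe sets, 963 were named (909 genes) by matching their unversioned RefSeq accession to a RefSeq gene table (GRCm38.p6, names only).

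Values were used as deposited. All 9 arrays entered 1 limma model (version 3.58.1, R 4.3.3, lmFit and eBayes), with two-sided tests, with Benjamini-Hochberg adjustment over 1246 probe sets and a threshold of 0.05. The fit was tested on simulated deletion and anergy arrays with independent noise, where 200 of the 1246 probe sets were shifted by 0.5 or 1. Over 10 draws it recovered 88.3% and 99.3% of these, and 3.98% of the calls were false. An outlying array and shared deviations of same-numbered arrays were not simulated. SEs are the moderated ones, which pool the spread of the 3 groups for each probe set and so do not follow the SD of each group. List counts use 1 probe set per gene, the one with the highest mean. Named genes were the 3 genes, the measured family, up to 4 passing receptor kinases per comparison, and the 5 of highest Pearson r to each. Results of 1 gene that this rule named are not reported here. The genes, lists and motifs were chosen with earlier results of these data known.

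No 2 arrays held identical values, and replicates of a group correlated at 0.995 to 0.998. Same-numbered deletion and anergy arrays deviated together (r = 0.195, 0.270 and 0.280), without support for a pairing in the labels. The reported fit treats all arrays as unpaired, so its SEs and adjusted p-values make no use of this. The replicate block was run as an alternative only. Deletion and naive arrays gave -0.136, 0.118 and -0.142, and anergy and naive arrays -0.154, 0.274 and 0.175. The number of arrays limits the precision. Alternatives were median centring, quantile normalization, array weights, a replicate block, a fit to the compared groups alone, leaving out the dimmest probe sets and leaving out each array.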

Additional observations from a re-analysis of the deposited data

How the results depend on the processing

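Differences of the 5 probe sets kept their direction under median centring, quantile normalization, array weights and every left-out array, except those whose groups overlapped. These were the _at probe set of Igfbp4 in deletion minus anergy (-0.0185 after quantile normalization, 0.07 to 0.28 with 1 array left out) and Igf1r in deletion minus naive (-0.06 to 0.18). Igf1r otherwise ran from 1.27 to 1.85 against anergy and, in anergy minus naive, from -1.77 to -1.19. Igfbp7 in deletion minus anergy was 1.01 after quantile normalization, a shift above its small replicate SD. The mean over the 3 Igfbp4 probe sets was 0.54 in deletion minus anergy, -4.15 in deletion minus naive and -4.69 in anergy minus naive.

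The count of family genes past the threshold stayed 0 in deletion against anergy in all 15 alternatives, the replicate block included. In deletion against naive it was 2 as reported, 4 with a replicate block, and 3 after quantile normalization and with array weights. In anergy against naive it was 4 as reported, 3 after quantile normalization, 2 after median centring and with only the groups compared in the fit, and 2 to 4 with 1 array left out, at 2 without deletion replicate 1, anergy replicate 1 or 2, or naive replicate 1. Where same-numbered arrays do not deviate together, the blocked count shows a shared number only.

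Deletion against anergy gave 26 higher and 16 lower calls among the 1246 probe sets. Median centring gave 13 and 13, quantile normalization 32 and 38, array weights 44 and 31, a fit to only those groups 8 and 13, and the replicate block 33 and 22. The reported fit has no block, and with equal group numbers the block left the 5 probe sets' differences as they were. Totals ran from 20 to 44 with 1 array left out.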
